A study of Saccharomyces cerevisiae with 22 samples.

Results

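The genes described here are 30 budding yeast genes of the general stress response taken from a list of systematic gene identifiers. They are the genes of the transcription factors Msn2 and Msn4 and a set of stress-induced genes that leaves out the enzymes of trehalose and glycogen. All 30 were found among the 7126 entries of the deposited gene tables, and all 30 passed the filter on low counts that left 6278 genes for testing.

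PolyA RNA was sequenced from 22 libraries of Saccharomyces cerevisiae W303, a common laboratory strain. The cultures of all 4 groups were grown alike, in yeast extract and peptone with 2% raffinose, and all received 2% galactose for 4 h. The PSD1 group (n = 6) carried a 2u plasmid, which is kept in many copies per cell, with PSD1 behind the galactose-induced GAL1-10 promoter. The PSD1 pdr3 deletion group (n = 6) carried the same plasmid in cells without PDR3, a zinc cluster transcription factor of the drug resistance network. The V5-PSD1 group (n = 5) carried PSD1 with a V5 epitope tag on a plasmid of the same kind, and the empty vector group (n = 5) carried an empty 2u plasmid. PSD1 encodes phosphatidylserine decarboxylase of the mitochondrial inner membrane, so the plasmids place a mitochondrial enzyme under galactose control. Cells that lack PDR3 and carry the empty vector were not analysed here, so the deletion is compared in the presence of the PSD1 plasmid. The labels do not say whether replicates were separate cultures, so p-values measure the spread between these libraries, which may be technical.

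Msn2 and Msn4 are related zinc finger proteins that bind the stress response element (STRE), AGGGG, ahead of many genes. Protein kinase A, which is active when glucose is plentiful, keeps them out of the nucleus, and heat, osmotic or oxidative stress and starvation let them enter it. Their targets include a catalase, small hydrophilic proteins, cell wall proteins, protease inhibitors and enzymes of aldehyde and NAD metabolism. Control of Msn2 and Msn4 is known mainly at the level of the proteins' location, so their own mRNA is not a measure of their activity.

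Total counts per library ran from 8152941 to 20839061. PSD1 mRNA had a lowest, median and highest level of 8094, 15658 and 24968 CPM (counts scaled to library size, with sizes adjusted by the trimmed mean of M values) in PSD1 cells, and 13509, 17144 and 27217 CPM in PSD1 pdr3 deletion cells. It had 19028, 23318, 30494, 24230.0 and 26331 CPM in the V5-PSD1 libraries and 603, 399, 372, 541 and 240.2 CPM in the empty vector libraries. The libraries of the 3 PSD1 plasmid groups all lay above those of the empty vector. This level does not tell the tagged from the untagged plasmid, whose libraries overlapped, and PSD1 mRNA was lower in PSD1 than in V5-PSD1 cells (log2 difference -0.69 ± 0.26 SE, adjusted p = 0.0383). PDR3 mRNA was at most 0.24 CPM in PSD1 pdr3 deletion cells and at least 74.1 CPM in every library of the other groups. Libraries belong to 2 series by the first digit of their library number in the labels, with 12 libraries in series 5 and 10 in series 6, and each group has libraries in both. What the digit stands for is not stated. Within series 5 the library numbers form 3 runs of 4 consecutive numbers, each with 1 library of every group, and results that change when these runs replace the series in the fit are given with their values.

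The stretches ahead of 6 genes are shown. The 6 include the most abundant member (HSP12) and the member with the largest fold change in PSD1 cells in the fit of all libraries (NQM1). They also include 2 of the 3 pairs of paralogs in which only 1 gene has a STRE (DDR2 with HOR7, STF2 with TMA10). Each runs from 250 to 101 bases before the start codon, 5′ to 3′ on the strand of the gene, in the R64 reference genome (the sacCer3 sequence) as RefSeq gives it. Capitals mark each AGGGG or, for the element on the other strand, CCCCT.
HSP12, chrVI:107006-107155, plus strand: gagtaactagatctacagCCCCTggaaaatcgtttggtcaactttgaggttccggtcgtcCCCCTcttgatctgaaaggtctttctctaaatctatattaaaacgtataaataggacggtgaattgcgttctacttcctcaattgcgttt
NQM1, chrVII:581537-581686, minus strand: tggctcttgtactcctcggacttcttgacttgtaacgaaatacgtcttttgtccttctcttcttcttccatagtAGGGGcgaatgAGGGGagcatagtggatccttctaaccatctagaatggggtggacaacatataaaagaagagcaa
DDR2, chrXV:231856-232005, minus strand: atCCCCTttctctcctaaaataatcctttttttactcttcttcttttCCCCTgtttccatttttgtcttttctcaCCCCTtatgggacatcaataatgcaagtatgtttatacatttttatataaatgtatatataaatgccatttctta
HOR7, chrXIII:774502-774651, plus strand: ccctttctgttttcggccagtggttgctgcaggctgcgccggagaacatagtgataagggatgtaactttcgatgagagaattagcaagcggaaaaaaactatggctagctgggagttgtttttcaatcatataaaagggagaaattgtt
STF2, chrVII:508465-508614, minus strand: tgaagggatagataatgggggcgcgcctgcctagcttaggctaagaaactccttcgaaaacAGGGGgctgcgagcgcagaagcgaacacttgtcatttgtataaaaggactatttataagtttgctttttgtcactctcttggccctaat
TMA10, chrXII:783488-783637, minus strand: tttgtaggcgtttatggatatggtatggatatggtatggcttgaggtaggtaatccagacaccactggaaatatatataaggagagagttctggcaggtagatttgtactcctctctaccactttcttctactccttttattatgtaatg
In these 150 bases HSP12 and NQM1 hold 2 elements each, DDR2 holds 3 and STF2 holds 1, while HOR7 and TMA10 hold none. Over the whole window searched, from 250 bases before to 50 after the start of the gene, 20 of the 30 members (66.7%) held AGGGG on either strand, against 1297 of 6001 protein-coding genes (21.6%). At least 2 elements were found in 9 of the 30 members, against 2.93% of all genes. With only the bases before the start counted, the shares were 66.7% of members and 18.8% of all genes. The core of a heat shock element, GAANNTTC, which reads the same on both strands, was found for 3 members (10.0%) and 11.8% of all genes. The core of the Pdr1/Pdr3 element, CCGCGG, which also reads the same on both strands, was found for 0 of the 30 members and 1.23% of all genes. No STRE in a member's window overlapped either of these motifs. A match is a description of the letters and not of a bound site, and the 10 members with no match (MSN2, MSN4, XBP1, HOR7, TMA10, SIP18, GRE1, YGP1, SPI1 and RGI2) were not searched outside the window.

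In PSD1 cells most of the general stress genes were higher than in empty vector cells. Of the 30 members, 26 rose, 1 fell (MSN2) and 3 were not called (MSN4, PBI2 and ALD4) by the quasi-likelihood test of edgeR, with p-values adjusted by Benjamini and Hochberg's method over all tested genes at 0.05. Over all 6278 tested genes, 29.7% were called higher and 26.9% lower in this comparison. At least a 2-fold rise was called for 22 members, against 4.64% of all genes. In 22 members every PSD1 library lay above every empty vector library, a pattern that 18.4% of all genes showed. The median log2 fold change was 1.81 over the members and 0.02 over all tested genes. Together the 30 genes took 1.18% to 1.59% of the counts of a PSD1 library and 0.408% to 0.712% of those of an empty vector library.

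**Figure D1:**
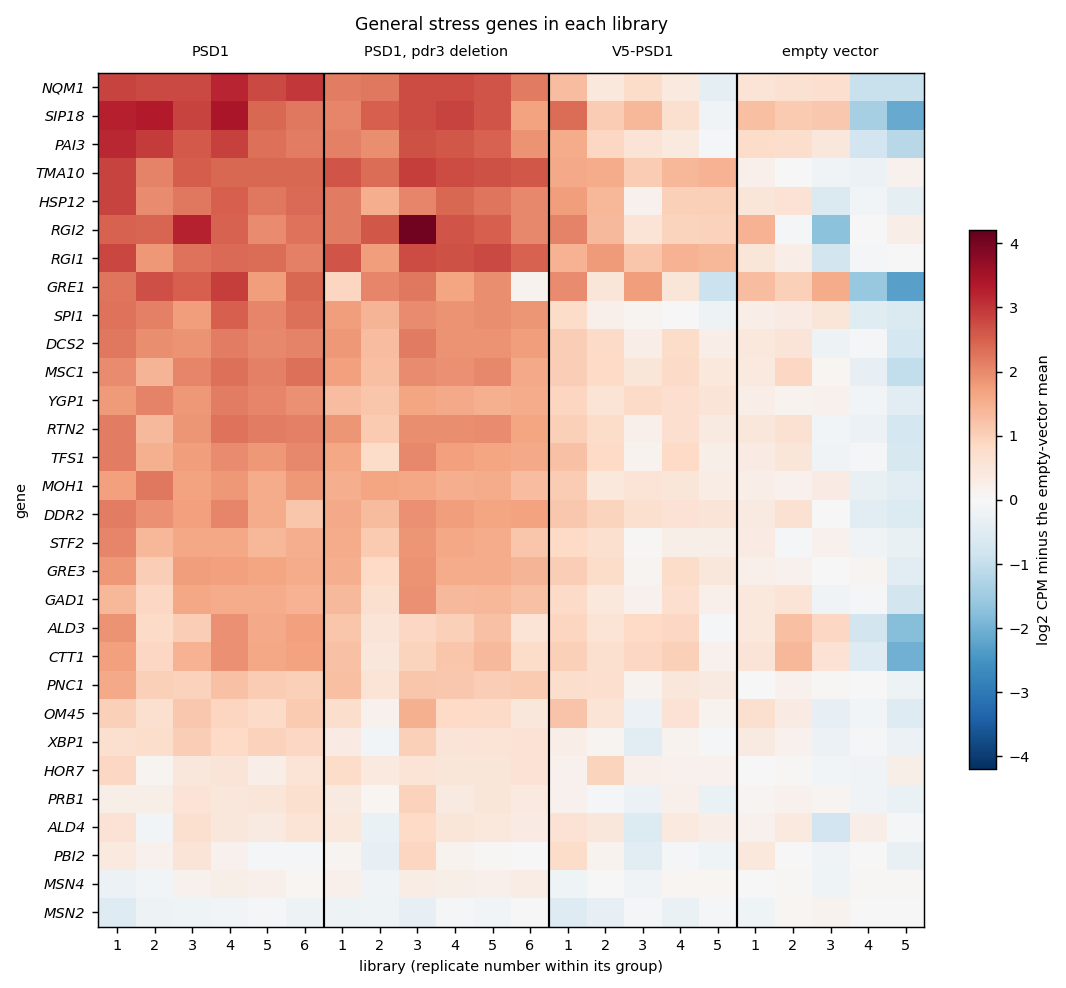
Log2 difference of each general stress gene (rows) in each of the 22 libraries (columns) from the mean of the empty vector libraries, on log2 CPM with a prior count of 2. Columns run from PSD1 through PSD1 pdr3 deletion and V5-PSD1 to empty vector. The median over the 30 genes lies between 1.41 and 1.95 in PSD1 libraries and between -0.47 and 0.40 in empty vector libraries.

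Of the regulator genes, MSN2 and MSN4 moved little, while XBP1 rose. For groups of 6 libraries, the lowest, the median and the highest level are given, and for groups of 5 all values in the order of their replicate numbers. MSN2 (YMR037C) had a lowest, median and highest level of 137, 176 and 192 CPM in PSD1 libraries, against 175, 210.0, 220.4, 202 and 198 CPM in the empty vector libraries. The groups overlapped, and PSD1 replicate 1 was the lowest. MSN2 fell by 0.24 ± 0.09 on the log2 scale (adjusted p = 0.0238). This call was lost without PSD1 replicate 1, empty vector replicate 2 or empty vector replicate 3, with a highest adjusted p of 0.079. MSN4 (YKL062W) had 146, 189.7 and 205 CPM (lowest, median, highest) in PSD1 libraries, against 176, 181, 153, 180.0 and 179 CPM in empty vector libraries. These ranges overlapped, and the log2 difference was 0.05 ± 0.08 (adjusted p = 0.619). XBP1 (YIL101C) encodes a stress-induced transcriptional repressor, and its levels were 164, 186 and 207 CPM in PSD1 libraries, against 132, 116, 85.5, 98.2 and 85.8 CPM in empty vector libraries. All PSD1 libraries were above all empty vector libraries, and the rise was 0.84 ± 0.16 on the log2 scale (adjusted p = 0.000184).

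HSP12 (YFL014W) encodes a small protein that associates with membranes under stress. It had 2059, 2601 and 3730.3 CPM (lowest, median, highest) in PSD1 libraries, against 748, 801, 348, 485 and 392 CPM in empty vector libraries. The groups did not overlap, and the fold change was 4.98 (log2 2.32 ± 0.27, adjusted p = 7e-07). HSP12 was also the member with the highest level per length, with a mean of 9742 FPKM in PSD1 cells and 2016 FPKM in empty vector cells. It made up 17.8% to 23.6% of the members' counts in PSD1 libraries and 7.04% to 11.6% in empty vector libraries.

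DDR2 (YOL052C-A) and HOR7 (YMR251W-A) encode small paralogous proteins induced by stress, with 71.3% identity between their coding sequences in aligned positions. DDR2 had 85.4, 133 and 168 CPM in PSD1 libraries, against 49.3, 58.4, 37.8, 27.5 and 25.2 CPM in empty vector libraries, without overlap. It rose 3.45-fold (log2 1.79 ± 0.18, adjusted p = 1.69e-07). HOR7 had 45.9, 60.3 and 78.2 CPM in PSD1 libraries, against 41.9, 44.1, 39.7, 38.5 and 50.1 CPM in empty vector libraries. Its groups overlapped, and it rose 1.40-fold (log2 0.49 ± 0.14, adjusted p = 0.00584). The log2 fold change of DDR2 exceeded that of HOR7 by 1.299, a difference between genes that was not tested. DDR2 is the member of the pair with 3 elements in the stretch shown, and HOR7 has none.

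The other pair shown goes the opposite way with respect to the element. TMA10 (YLR327C), whose protein associates with ribosomes, had 316, 394 and 531 CPM in PSD1 libraries, against 85.4, 73.1, 66.7, 62.1 and 84.1 CPM in empty vector libraries. There was a wide gap between the groups, and TMA10 rose 5.51-fold (log2 2.46 ± 0.13, adjusted p = 1.02e-10). STF2 (YGR008C), a hydrophilin also described as a factor of the mitochondrial ATP synthase, had 236, 269 and 372 CPM in PSD1 libraries, against 113, 86.8, 103, 80.5 and 73.0 CPM in empty vector libraries. It rose 3.10-fold without overlap (log2 1.63 ± 0.16, adjusted p = 9.8e-08). TMA10 has no STRE in its window and STF2 has 1, and the log2 fold change of TMA10 was the larger by 0.83.

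SIP18 (YMR175W) and GRE1 (YPL223C) are hydrophilins, proteins rich in hydrophilic residues that are made under water loss. SIP18 had 55.4, 100 and 129 CPM in PSD1 libraries, against 28.9, 25.6, 26.5, 4.43 and 2.64 CPM in empty vector libraries, so that the groups did not overlap. GRE1 had 147, 238 and 323 CPM in PSD1 libraries, against 106, 86.5, 129, 14.3 and 8.79 CPM in empty vector libraries, again without overlap. In both genes empty vector replicates 4 and 5, the series 6 libraries, were far below the other three. SIP18 rose 6.57-fold (log2 2.72 ± 0.44, adjusted p = 3.69e-05) and GRE1 rose 4.80-fold (log2 2.26 ± 0.53, adjusted p = 0.00118).

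RGI1 (YER067W) and RGI2 (YIL057C) are paralogs that act in energy metabolism under respiratory growth. RGI1 had 147, 204 and 292 CPM in PSD1 libraries, against 59.1, 50.5, 24.1, 40.1 and 40.9 CPM in empty vector libraries. RGI2 had 18.3, 25.1 and 43.0 CPM in PSD1 libraries, against 12.6, 4.30, 1.25, 4.55 and 5.46 CPM in empty vector libraries. Neither gene's groups overlapped. RGI1 has 2 STREs in its window and RGI2 has none. Both rose by 2.27 on the log2 scale, RGI1 with an SE of 0.22 (adjusted p = 9.82e-08) and RGI2 with an SE of 0.43 (adjusted p = 0.000151). RGI2 was the member with the lowest mean level per length in empty vector cells, at 12.8 FPKM, against 59.3 FPKM in PSD1 cells.

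Among enzymes of redox and carbon metabolism, NQM1 (YGR043C), a paralog of the transaldolase gene TAL1, had the largest fold change of all members in the fit of all libraries. Within series 5 TMA10 had the largest log2 value (2.5, NQM1 2.17), and within series 6 SIP18 did (4.595, NQM1 3.95). NQM1 had 204, 209 and 274 CPM in PSD1 libraries, against 44.0, 46.4, 48.2, 15.3 and 15.5 CPM in empty vector libraries. The groups did not overlap, and NQM1 rose 7.12-fold (log2 2.83 ± 0.29, adjusted p = 2.07e-07). CTT1 (YGR088W), the cytosolic catalase that breaks down hydrogen peroxide, had 299.96, 519 and 627 CPM in PSD1 libraries, against 241, 440.1, 253, 114 and 40.9 CPM in empty vector libraries. Its groups overlapped, as empty vector replicate 2 (440.1 CPM) lay above PSD1 replicate 2 (299.96 CPM). CTT1 rose 2.44-fold (log2 1.29 ± 0.38, adjusted p = 0.00716), a call that was lost in series 5 alone (adjusted p = 0.23). GRE3 (YHR104W), an aldose reductase, averaged 575 ± 98.7 CPM in PSD1 cells and 191 ± 32.9 CPM in empty vector cells (SD, n = 6 and 5), a rise of 1.59 on the log2 scale. GAD1 (YMR250W), glutamate decarboxylase, averaged 433 ± 72.8 CPM in PSD1 cells and 170 ± 59.6 CPM in empty vector cells, a rise of 1.38. PNC1 (YGL037C), the nicotinamidase of NAD salvage, averaged 804 ± 150.5 CPM in PSD1 cells and 361 ± 35.6 CPM in empty vector cells, a rise of 1.16. Of the 2 aldehyde dehydrogenase genes, 1 was called. The cytosolic ALD3 (YMR169C) rose by 1.32 ± 0.38 (adjusted p = 0.00578). Its groups overlapped, and its call was lost in series 5 alone (adjusted p = 0.283). The log2 fold change of ALD3 was 0.43 within series 5 and 2.97 within series 6. The mitochondrial ALD4 (YOR374W) averaged 1132 ± 203 CPM in PSD1 cells and 860 ± 239 CPM in empty vector cells and was not called (log2 0.39 ± 0.22, adjusted p = 0.139). With the runs of library numbers in the fit, ALD4 was called higher (adjusted p = 0.000214). ALD3 shares 91.8% of its coding bases with ALD2, with 1 identical stretch of 329 bases, so reads may have been split between them and its value is uncertain.

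The cell surface genes YGP1 (YNL160W) and SPI1 (YER150W), which encode a secreted glycoprotein and a wall protein anchored by glycosylphosphatidylinositol, both rose. YGP1 had 1219.6, 1379 and 1556 CPM in PSD1 libraries, against 428, 385, 394, 325 and 252 CPM in empty vector libraries. SPI1 had 90.7, 123 and 151 CPM in PSD1 libraries, against 32.3, 33.8, 37.7, 18.8 and 17.5 CPM in empty vector libraries. In both, the lowest PSD1 library was more than double the highest empty vector library. YGP1 rose 3.89-fold (log2 1.96 ± 0.13, adjusted p = 7.68e-10) and SPI1 rose 4.48-fold (log2 2.16 ± 0.20, adjusted p = 5.61e-08).

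Among the genes of vacuolar proteases and their inhibitors, 2 of the 3 inhibitors rose, with larger fold changes than the 2 protease genes given here, PRB1 and PEP4. PAI3 (YMR174C), the inhibitor of proteinase A, had 66.2, 99.4 and 135 CPM in PSD1 libraries, against 25.7, 25.0, 20.7, 8.41 and 6.53 CPM in empty vector libraries. The groups did not overlap, and PAI3 rose 6.26-fold (log2 2.65 ± 0.29, adjusted p = 3.86e-07). TFS1 (YLR178C), the inhibitor of carboxypeptidase Y, averaged 394 ± 60.5 CPM in PSD1 cells and 111 ± 34.0 CPM in empty vector cells, a rise of 1.85 ± 0.23 on the log2 scale (adjusted p = 2.03e-06). PBI2 (YNL015W), the inhibitor of proteinase B, averaged 108 ± 18.5 CPM in PSD1 cells and 95.0 ± 20.2 CPM in empty vector cells, and was not called (log2 0.22 ± 0.19, adjusted p = 0.349). PRB1 (YEL060C), proteinase B itself, rose by 0.46 ± 0.14 (adjusted p = 0.00898), and PEP4, which encodes proteinase A and is not one of the 30, rose by 0.79 ± 0.11 (adjusted p = 5.63e-06). The differences between genes were not tested.

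The remaining members also rose. DCS2 (YOR173W), a paralog of the scavenger decapping enzyme gene DCS1, averaged 285 ± 23.4 CPM in PSD1 cells and 72.2 ± 24.7 CPM in empty vector cells (log2 2.01 ± 0.20). RTN2 (YDL204W), a reticulon of the endoplasmic reticulum, averaged 441 ± 90.0 CPM in PSD1 cells and 116 ± 43.3 CPM in empty vector cells (log2 1.95 ± 0.24). MSC1 (YML128C) rose by 1.97 ± 0.26 on the log2 scale. MOH1 (YBL049W) had 50.4, 57.6 and 78.6 CPM in PSD1 libraries, against 20.3, 18.9, 21.2, 13.4 and 12.4 CPM in empty vector libraries. That is a separation of the groups with a rise of 1.84 ± 0.13 (adjusted p = 2.28e-09). OM45 (YIL136W), a protein of the mitochondrial outer membrane, rose by 0.92 ± 0.24, with ranges of 541 to 741 CPM in PSD1 libraries and 232 to 546 CPM in empty vector libraries that overlapped.

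**Figure D2:**
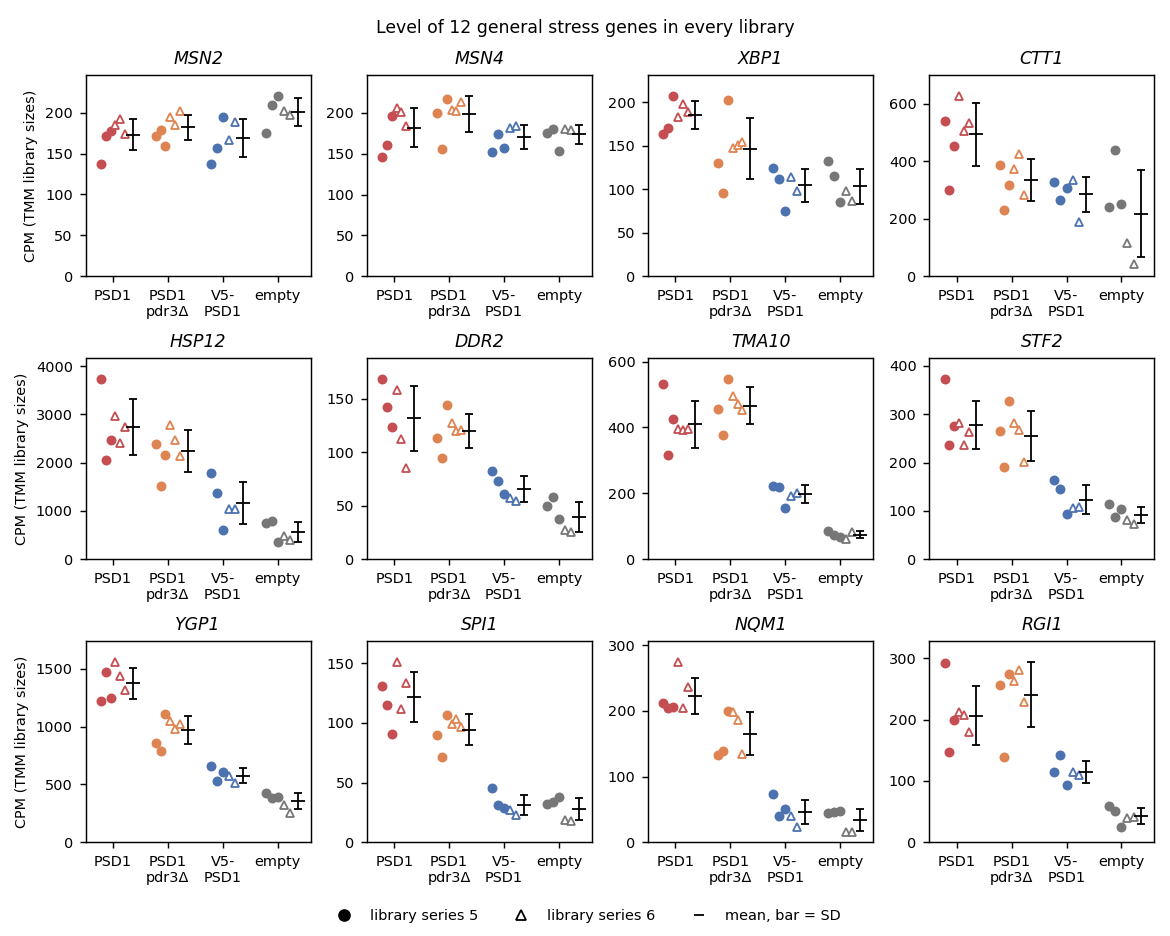
Level in CPM of 12 general stress genes in every library, with the groups PSD1, PSD1 pdr3 deletion, V5-PSD1 and empty vector on the horizontal axis. Filled circles are libraries of series 5, open triangles those of series 6, and the bar beside each group is the mean and SD. For TMA10 the PSD1 libraries sit between 316 and 531 CPM and the empty vector libraries between 62.1 and 85.4 CPM, while for MSN4 the groups overlap.

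The same fold changes were computed within each library series. Within series 5 the median log2 fold change of the members in PSD1 over empty vector was 1.46, and within series 6 it was 2.22. The fold change was the larger in series 6 for 25 of the 30 members. CTT1 had a log2 fold change of 0.47 within series 5 and 2.85 within series 6, GRE1 had 1.195 and 4.36, and NQM1 had 2.17 and 3.95. RGI1 had 2.26 within series 5 and 2.31 within series 6. No member passed the test of the difference between the series over all genes. The lowest adjusted p was 0.0873, for ALD3 and NQM1, and 3 genes of the 6278 passed. With series 5 alone, 20 of the 30 members were called higher. The calls of CTT1, ALD3, HOR7, OM45, PRB1 and XBP1 were lost there (adjusted p between 0.0719 and 0.484). Among the members the median coefficient of variation over libraries was 17.6% in PSD1 cells and 31.8% in empty vector cells.

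Removal of PDR3 left the general stress genes high. In PSD1 pdr3 deletion cells over PSD1 cells, 0 of the 30 members were called higher and 0 lower by edgeR's quasi-likelihood test, where 0.0159% and 0.398% of all genes were called higher and lower. At an unadjusted p under 0.05, 4 members were lower (YGP1, SPI1, XBP1 and MOH1), against 2.64% of all genes. DESeq2 called 0 members higher and 1 lower, YGP1. The median log2 fold change of the members was -0.18, beside 0.00 over all genes, and 23 of the 30 values were negative. A p that misses the threshold does not show that a gene was alike in both groups.

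YGP1 had the lowest p. Its levels were 792, 1003 and 1108 CPM (lowest, median, highest) in PSD1 pdr3 deletion libraries, against 1219.6, 1379 and 1556 CPM in PSD1 libraries. These ranges did not overlap, and the log2 difference was -0.50 ± 0.11 (adjusted p = 0.0565). The gene was called lower without PSD1 replicate 1 or 3, without PSD1 pdr3 deletion replicate 3, or without empty vector replicate 1 or 5, with adjusted p between 0.0134 and 0.0495. It was also called lower with the runs of library numbers in the fit (adjusted p = 0.0305). NQM1 was the other member without overlap, with 133, 163 and 200.3 CPM in PSD1 pdr3 deletion libraries, against 204, 209 and 274 CPM in PSD1 libraries, and a log2 difference of -0.43 ± 0.25. Such a pattern, with every deletion library below every PSD1 library, was shown by 0.366% of all genes. GRE1 had the most negative value, -0.87 ± 0.45, with 48.4, 152 and 199 CPM in PSD1 pdr3 deletion libraries and 147, 238 and 323 CPM in PSD1 libraries, which overlapped. CTT1 had 229, 345 and 425 CPM in PSD1 pdr3 deletion libraries, against 299.96, 519 and 627 CPM in PSD1 libraries, and also overlapped (log2 -0.56 ± 0.34).

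A few members had higher means in the deletion. TMA10 had 376, 464 and 547 CPM in PSD1 pdr3 deletion libraries, against 316, 394 and 531 CPM in PSD1 libraries (log2 0.19 ± 0.12). RGI1 had 139, 259.7 and 282 CPM in PSD1 pdr3 deletion libraries, against 147, 204 and 292 CPM in PSD1 libraries (log2 0.22 ± 0.19). RGI2 had 18.4, 27.1 and 75.7 CPM in PSD1 pdr3 deletion libraries, against 18.3, 25.1 and 43.0 CPM in PSD1 libraries (log2 0.29 ± 0.37). In all of these the groups overlapped. HSP12 had 1508, 2273 and 2782 CPM in PSD1 pdr3 deletion libraries, against 2059, 2601 and 3730.3 CPM in PSD1 libraries, and its log2 difference was -0.28 ± 0.24. MSN2 and MSN4 differed by 0.07 ± 0.08 and 0.13 ± 0.08.

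Set against empty vector cells, PSD1 pdr3 deletion cells had 24 of the 30 members higher and 0 lower, where 26.1% and 21.4% of all genes were called higher and lower. This comparison shares its empty vector libraries with the one above and its PSD1 pdr3 deletion libraries with the comparison of the deletion. At least a 2-fold rise was called for 20 members, against 3.14% of all genes. All libraries of the deletion lay above all empty vector libraries for 20 members, against 16.5% of all genes. TMA10 rose by 2.65 ± 0.13, RGI2 by 2.56 ± 0.43, RGI1 by 2.49 ± 0.22 and NQM1 by 2.40 ± 0.29 on the log2 scale. The uncalled members were MSN2, MSN4, PBI2, ALD4, CTT1 and ALD3. CTT1 had a log2 difference of 0.73 ± 0.38 (adjusted p = 0.117) and ALD3 one of 0.68 ± 0.37 (adjusted p = 0.139). Within series 5 the values were 0.00 for CTT1 and -0.01 for ALD3, and within series 6 they were 2.23 and 2.19. Series 6 alone called both (adjusted p = 0.00166 for CTT1 and 0.00079 for ALD3), and the test of the difference between the series gave adjusted p of 0.348 and 0.259. With limma on log2 FPKM, CTT1 was called (adjusted p = 0.0385). Without empty vector replicate 2, the highest control library for CTT1, both were called, with adjusted p of 0.016 for CTT1 and 0.0371 for ALD3. MSN4 was called higher without PSD1 pdr3 deletion replicate 2 (adjusted p = 0.0162). With the runs of library numbers in the fit, MSN4 (adjusted p = 0.0392) and ALD4 (adjusted p = 0.000781) were called higher. GRE1 rose by 1.39 ± 0.51 (adjusted p = 0.0308). Its call was lost without empty vector replicate 4 or 5 or PSD1 pdr3 deletion replicate 4 or 5 (highest adjusted p = 0.0972). It was also lost without the library series term (adjusted p = 0.162) and in series 5 alone (adjusted p = 0.398). The log2 fold change of GRE1 was 0.52 within series 5 and 3.38 within series 6. XBP1 rose by 0.50 ± 0.16 (adjusted p = 0.0134). Its call was lost without PSD1 pdr3 deletion replicate 3 (adjusted p = 0.0518) and in series 5 alone (adjusted p = 0.426).

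**Figure D3:**
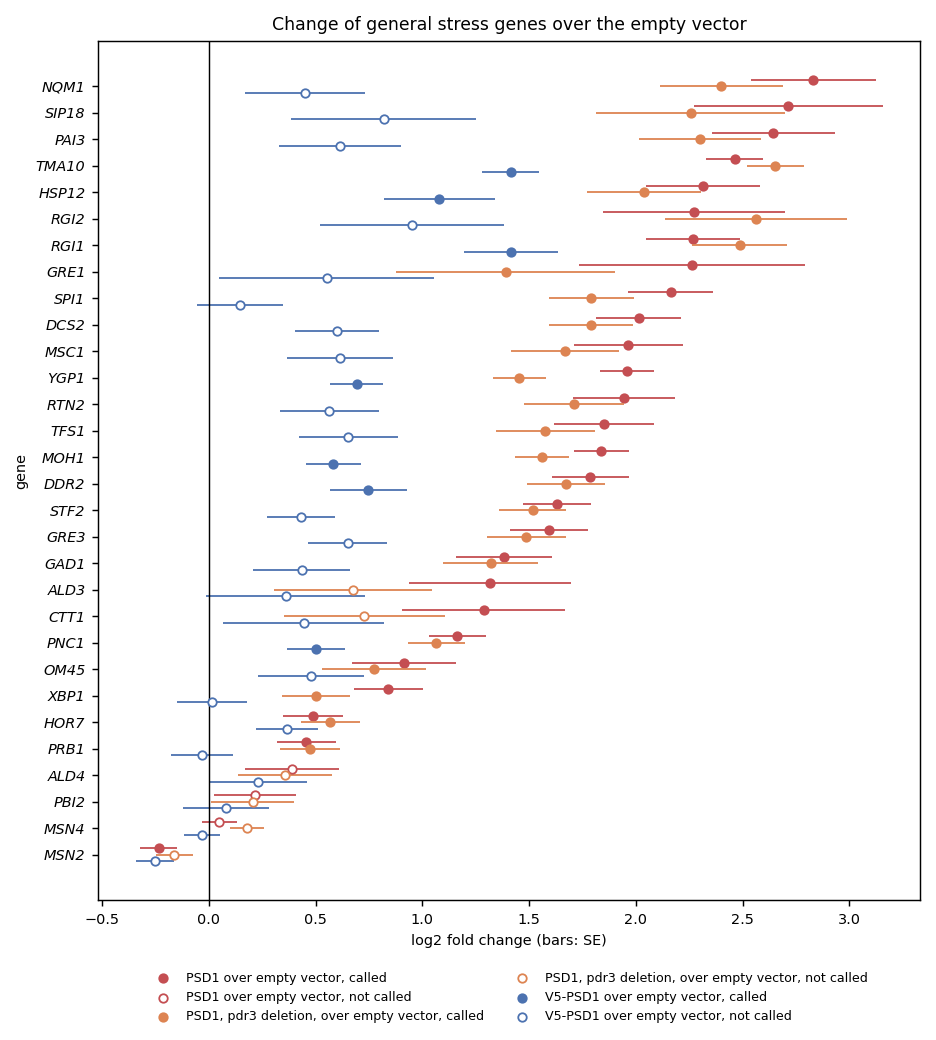
Log2 fold change with its SE for each general stress gene in PSD1, PSD1 pdr3 deletion and V5-PSD1 cells, each over the same 5 empty vector libraries. Filled points were called and open points were not. The median over the 30 genes is 1.81 for PSD1, 1.502 for PSD1 pdr3 deletion and 0.53 for V5-PSD1.

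The tagged plasmid was accompanied by smaller differences, although its PSD1 mRNA level was the higher one. In V5-PSD1 over empty vector, 7 members rose, 0 fell and 23 were not called, where 2.53% and 0.494% of all genes were called higher and lower. Those that rose were TMA10, RGI1, HSP12, DDR2, YGP1, MOH1 and PNC1. At least a 2-fold rise was called for 3 members (TMA10, RGI1 and HSP12), against 0.398% of all genes. At an unadjusted p under 0.05 there were 17 members, with MSN2 among them as lower. The share of all genes at that threshold is not given, so the count has no baseline. The median log2 fold change was 0.53, beside 0.02 over all genes. Within series 5 the median was 0.37 and within series 6 it was 0.89, and no gene passed the test of the difference between the series (lowest adjusted p among members 0.982). With the runs of library numbers in the fit, 12 members were called higher and 1 lower. The added ones were GRE3 (adjusted p = 0.00302), HOR7 (0.0426), DCS2 (0.0231), RGI2 (0.0138) and TFS1 (0.0247) as higher and MSN2 (0.0446) as lower. That fit was added after the data were seen, and its share of all genes is not given. Over all alternatives, 13 to 390 genes were called higher, beside 159 in the main fit, so the added calls cannot be set against a baseline.

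TMA10 had 222, 219, 155, 193 and 201 CPM in the V5-PSD1 libraries, against 85.4, 73.1, 66.7, 62.1 and 84.1 CPM in the empty vector libraries. It rose 2.66-fold (log2 1.41 ± 0.13, adjusted p = 5.97e-07). RGI1 had 114, 142, 92.6, 114 and 109 CPM in V5-PSD1 libraries, against 59.1, 50.5, 24.1, 40.1 and 40.9 CPM in empty vector libraries, and rose 2.67-fold (log2 1.41 ± 0.22, adjusted p = 0.000348). YGP1 had 663, 525, 609, 572 and 509 CPM in V5-PSD1 libraries, against 428, 385, 394, 325 and 252 CPM in empty vector libraries, and rose 1.62-fold (log2 0.69 ± 0.12, adjusted p = 0.00181). These 3 were the members whose V5-PSD1 libraries all lay above the empty vector libraries, a pattern of 3.78% of all genes, and the 3 calls were kept whichever library was left out. With series 5 alone the calls of YGP1 (adjusted p = 0.283) and RGI1 (adjusted p = 0.312) were lost.

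The other 4 calls were lost when some single libraries were left out. HSP12 had 1779, 1378, 600.5, 1039.8 and 1049 CPM in V5-PSD1 libraries, against 748, 801, 348, 485 and 392 CPM in empty vector libraries, with V5-PSD1 replicate 3 inside the empty vector range. It rose 2.11-fold (log2 1.08 ± 0.26, adjusted p = 0.0249), a call lost without V5-PSD1 replicate 1 or 2 or empty vector replicate 3, 4 or 5 (highest adjusted p = 0.113). DDR2 had 82.8, 72.9, 60.6, 56.9 and 54.7 CPM in V5-PSD1 libraries, against 49.3, 58.4, 37.8, 27.5 and 25.2 CPM in empty vector libraries. Empty vector replicate 2 overlapped the V5-PSD1 range. It rose by 0.75 ± 0.18 (adjusted p = 0.0257), which was lost without V5-PSD1 replicate 1, 2 or 4 or empty vector replicate 3, 4 or 5 (highest adjusted p = 0.0908). MOH1 rose by 0.58 ± 0.13 (adjusted p = 0.0136) with 35.5, 22.9, 25.3, 24.1 and 20.8 CPM in V5-PSD1 libraries, against 20.3, 18.9, 21.2, 13.4 and 12.4 CPM in empty vector libraries. Its call was lost without V5-PSD1 replicate 1 (adjusted p = 0.0589). PNC1 rose by 0.50 ± 0.14 (adjusted p = 0.0478), and was not called in 17 of the 22 fits that left out a library (highest adjusted p = 0.156).

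Among the uncalled members, CTT1 had 329, 265, 306, 335 and 187 CPM in V5-PSD1 libraries, against 241, 440.1, 253, 114 and 40.9 CPM in empty vector libraries (log2 0.44 ± 0.38). SPI1 had 45.2, 30.9, 28.7, 27.3 and 22.9 CPM in V5-PSD1 libraries, against 32.3, 33.8, 37.7, 18.8 and 17.5 CPM in empty vector libraries (log2 0.15 ± 0.20). NQM1 had 73.3, 40.6, 51.3, 40.1 and 23.1 CPM in V5-PSD1 libraries, against 44.0, 46.4, 48.2, 15.3 and 15.5 CPM in empty vector libraries (log2 0.45 ± 0.28). All of these overlapped. Leaving out V5-PSD1 replicate 3 brought calls of DCS2, STF2 and GRE3 as higher and of MSN2 as lower. GRE3 was also called without PSD1 replicate 2 or PSD1 pdr3 deletion replicate 2. MSN2 had 137, 157, 195, 167 and 189 CPM in V5-PSD1 libraries, against 175, 210.0, 220.4, 202 and 198 CPM in empty vector libraries (log2 -0.25 ± 0.09, adjusted p = 0.138 with all libraries).

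The direct comparison of PSD1 with V5-PSD1 had 23 of the 30 members higher in PSD1 cells and 0 lower, where 20.3% and 20.1% of all genes were called higher and lower. At least a 2-fold difference was called for 16 members, against 1.77% of all genes. Every PSD1 library was above every V5-PSD1 library for 19 members, against 9.84% of all genes. The median log2 fold change was 1.04, beside 0.01 over all genes. All 30 values were positive.

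NQM1 differed most, with 204, 209 and 274 CPM in PSD1 libraries, against 73.3, 40.6, 51.3, 40.1 and 23.1 CPM in V5-PSD1 libraries. The difference was 5.21-fold (log2 2.38 ± 0.28, adjusted p = 4.3e-06). PAI3 had 66.2, 99.4 and 135 CPM in PSD1 libraries, against 44.6, 27.6, 22.1, 19.9 and 14.5 CPM in V5-PSD1 libraries (log2 2.03 ± 0.28, adjusted p = 1.59e-05). SPI1 had 90.7, 123 and 151 CPM in PSD1 libraries, against 45.2, 30.9, 28.7, 27.3 and 22.9 CPM in V5-PSD1 libraries (log2 2.02 ± 0.20, adjusted p = 6.03e-07). None of these overlapped. SIP18 had 55.4, 100 and 129 CPM in PSD1 libraries, against 61.5, 25.0, 31.9, 18.9 and 10.6 CPM in V5-PSD1 libraries, with V5-PSD1 replicate 1 inside the PSD1 range (log2 1.90 ± 0.42, adjusted p = 0.00126). GRE1 had 147, 238 and 323 CPM in PSD1 libraries, against 169.6, 60.9, 146, 61.3 and 22.8 CPM in V5-PSD1 libraries, and overlapped likewise (log2 1.71 ± 0.50, adjusted p = 0.0102). The GRE1 call was lost without the library series term (adjusted p = 0.0568) and in series 5 alone (adjusted p = 0.113).

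TMA10, RGI1 and HSP12, which had the largest rises under the tagged plasmid, were also higher in PSD1 than in V5-PSD1 cells. So were STF2 and XBP1, which were not called in V5-PSD1 over empty vector. TMA10 had 316, 394 and 531 CPM in PSD1 libraries, against 222, 219, 155, 193 and 201 CPM in V5-PSD1 libraries (log2 1.05 ± 0.13, adjusted p = 4.6e-06). RGI1 had 147, 204 and 292 CPM in PSD1 libraries, against 114, 142, 92.6, 114 and 109 CPM in V5-PSD1 libraries (log2 0.85 ± 0.21, adjusted p = 0.00269). Neither overlapped. HSP12 was 2.36-fold higher in PSD1 cells (log2 1.24 ± 0.26, adjusted p = 0.00072). STF2 had 236, 269 and 372 CPM in PSD1 libraries, against 163, 145, 93.3, 107 and 107 CPM in V5-PSD1 libraries (log2 1.201 ± 0.16, adjusted p = 1.03e-05). XBP1 had 164, 186 and 207 CPM in PSD1 libraries, against 125, 111, 74.8, 113 and 98.1 CPM in V5-PSD1 libraries (log2 0.83 ± 0.16, adjusted p = 0.000395). Both of these were without overlap. In series 5 alone the calls of RGI1 (adjusted p = 0.132), HSP12 (adjusted p = 0.0917) and XBP1 (adjusted p = 0.0738) were lost.

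The 7 members not called were MSN2, MSN4, HOR7, PBI2, ALD4, OM45 and CTT1. CTT1 had 299.96, 519 and 627 CPM in PSD1 libraries, against 329, 265, 306, 335 and 187 CPM in V5-PSD1 libraries (log2 0.84 ± 0.36, adjusted p = 0.0703), and was called without PSD1 replicate 2 or empty vector replicate 2 or 5. HOR7 had 45.9, 60.3 and 78.2 CPM in PSD1 libraries, against 48.3, 82.6, 49.2, 48.7 and 48.6 CPM in V5-PSD1 libraries (log2 0.12 ± 0.14). V5-PSD1 replicate 2 was the highest of all these, and without it HOR7 was called higher in PSD1 cells (adjusted p = 0.0438). OM45 was called without V5-PSD1 replicate 1 (adjusted p = 0.0438) and with the runs of library numbers in the fit (adjusted p = 0.00588). ALD3 was called with all libraries (log2 0.96 ± 0.36, adjusted p = 0.0397), and lost its call without PSD1 replicate 1, 4, 5 or 6 or V5-PSD1 replicate 1, 2, 3 or 5 (highest adjusted p = 0.112). It was also lost without the library series term (adjusted p = 0.0555), with a replicate block (adjusted p = 0.0649), with limma on log2 FPKM (adjusted p = 0.0513) and in series 5 alone (adjusted p = 0.209). With series 5 alone 12 of the 30 members were called higher, and the median log2 fold change was 0.99 within series 5 and 1.18 within series 6.

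**Figure D4:**
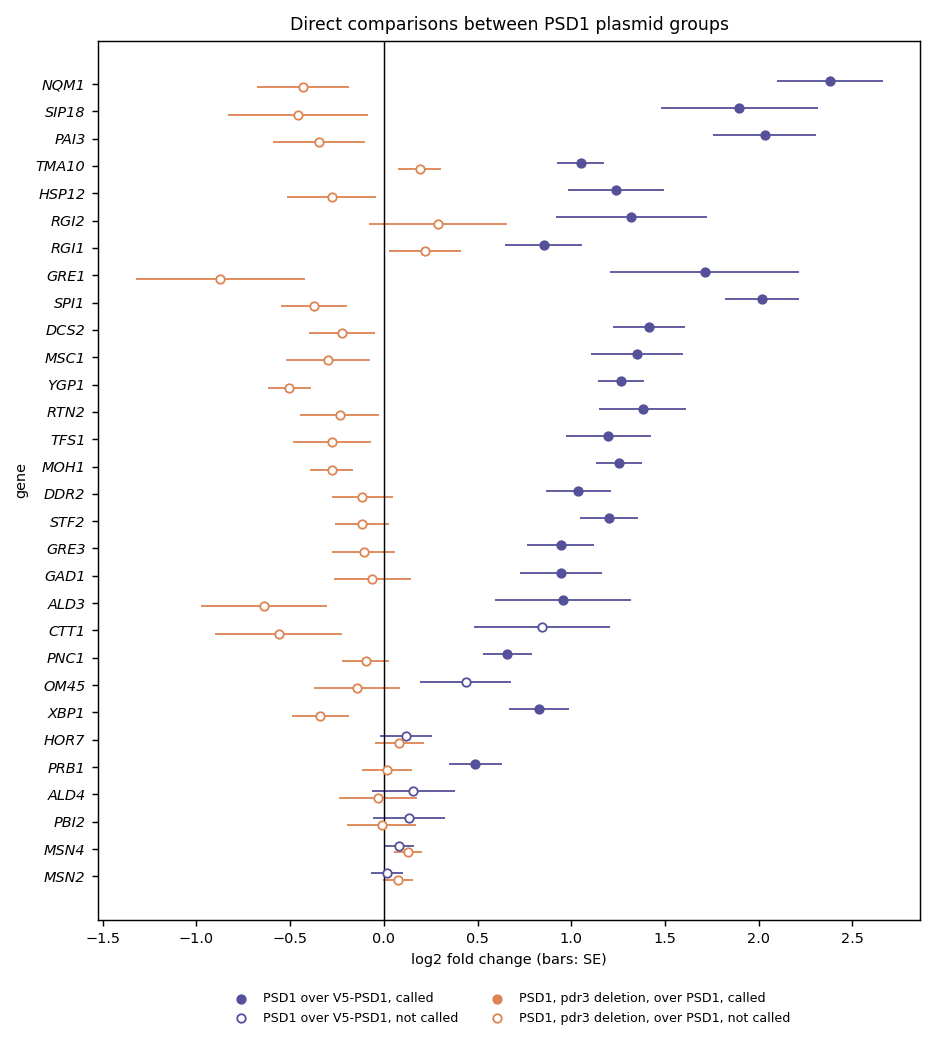
Log2 fold change with its SE for each general stress gene in PSD1 over V5-PSD1 cells and in PSD1 pdr3 deletion over PSD1 cells. Filled points were called and open points were not. All 30 values of PSD1 over V5-PSD1 are positive with 23 called, and no value of PSD1 pdr3 deletion over PSD1 was called.

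Across the 4 groups, 23 of the 30 members had the same order of mean CPM, highest in PSD1, then PSD1 pdr3 deletion, V5-PSD1 and empty vector. For TMA10, RGI1, HOR7 and RGI2 the first 2 places were exchanged, for PRB1 and MSN4 the last 2 places as well, and MSN2 alone was highest in empty vector cells. No member passed the test between PSD1 pdr3 deletion and PSD1, and 7 passed it between V5-PSD1 and empty vector. Per length, HSP12 averaged 9742 FPKM in PSD1, 8075 in PSD1 pdr3 deletion, 4046 in V5-PSD1 and 2016 in empty vector cells. TMA10 averaged 1935 FPKM in PSD1, 2226 in PSD1 pdr3 deletion, 912 in V5-PSD1 and 359 in empty vector cells. MSN2 averaged 83.7 FPKM in PSD1, 89.0 in PSD1 pdr3 deletion, 79.6 in V5-PSD1 and 99.4 in empty vector cells.

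Members with and without the STRE in the window both contained genes that rose. In PSD1 over empty vector, 18 of the 20 members with the element were called higher, with a median log2 fold change of 1.71. Of the 10 members without it, 8 were called higher and 1 lower, with a median of 2.06. Among tested genes outside the 30, the share called higher in the same comparison was 49.1% of 159 genes with 2 or more elements, 41.8% of 1080 genes with 1 and 26.5% of 4509 genes with none. Their median log2 fold changes were 0.26, 0.14 and -0.03. In V5-PSD1 over empty vector the shares called higher were 6.92% with 2 or more elements, 3.06% with 1 and 2.17% with none. These shares are descriptions without a test.

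Other lists of stress-related genes were read in the same fit. They were chosen by function, but with earlier results of these data known. Of 32 other stress-induced genes, 28 rose and 0 fell in PSD1 over empty vector, where 29.7% of all genes were higher. They were led by GND2 (2.71), FMP16 (2.51) and ROQ1 (2.48), with a median log2 fold change of 1.05. In PSD1 over V5-PSD1, 26 of these 32 were higher and 0 lower (20.3% of all genes were higher), and in V5-PSD1 over empty vector 4 were higher and 1 lower (2.53% of all genes were higher). Of 16 genes of trehalose and glycogen, 11 rose and 0 fell in PSD1 over empty vector (29.7% of all genes were higher), with a median of 0.57 and TSL1 (0.97), TPS1 (0.97) and GPH1 (0.80) as the largest. None of these 16 was called in V5-PSD1 over empty vector, where 4 had an unadjusted p under 0.05, a count without the share of all genes beside it.

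Cytosolic heat shock genes, listed here as targets of the factor Hsf1, encode chaperones and their partners. Of the 18 listed, 6 (33.3%) held a STRE in the window, against 21.6% of all genes. The core of a heat shock element was found for 8 (44.4%), against 11.8% of all genes. In V5-PSD1 over empty vector 17 of 18 were higher and 0 lower (2.53% of all genes were higher), with a median log2 fold change of 1.01, beside 7 of 30 and 0.53 for the general stress genes. In PSD1 over V5-PSD1, 5 of the 18 were higher and 1 lower (20.3% and 20.1% of all genes) with a median of 0.14, beside 23 of 30 and 1.04. In PSD1 over empty vector all 18 rose (29.7% of all genes were higher), with HSP26 (3.90), SSA3 (3.65) and SSA4 (2.36) as the largest. The difference between the lists was not tested. No gene of any of the 4 lists was called in PSD1 pdr3 deletion over PSD1.

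Of 32 genes for regulators that act on Msn2 and Msn4, 9 were higher and 8 lower in PSD1 over empty vector, shares near the 29.7% and 26.9% of all genes, and the median log2 fold change was -0.02. TPK2, a catalytic subunit of protein kinase A, rose by 0.55 ± 0.11, and BCY1, its regulatory subunit, rose by 0.53 ± 0.06. TPK3, another catalytic subunit, fell by 0.31 ± 0.08 (adjusted p = 0.00272), CDC25, the exchange factor of Ras, fell by 0.50 ± 0.13 (adjusted p = 0.00321), and TOR1, a kinase of the TOR pathway, fell by 0.34 ± 0.08 (adjusted p = 0.00111). TPK2 and BCY1 were also higher in PSD1 than in V5-PSD1 cells, by 0.32 and 0.42, and neither was called in V5-PSD1 over empty vector. In these data mRNA levels were measured, and neither the activity of the kinase nor the location of Msn2 and Msn4 was.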

How the data were processed

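The authors deposited an expected count per gene for each library, as whole numbers that were taken as rounded estimates. A further deposited table held log2 values, which the header and the values show to be FPKM with a pseudocount of 1. Per the submitters' processing notes, the tools were STAR 2.5.3a, RSEM 1.3.0 and SAMtools 1.3, and the genome was sacCer3. Annotation, filters and any use of strand in counting are not given in these sources. Reads of overlapping or antisense genes may therefore be mixed. No member overlapped a gene of the reference annotation, from which 1078 of the 7126 table entries are absent. For 2 columns whose replicate number went against the label, the library number was used. No 2 libraries of a group agreed within sampling noise, and pairs between groups were not compared.

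Genes were filtered with filterByExpr by group and scaled by TMM. All 22 libraries entered 1 quasi-likelihood fit in edgeR 4.0.16 (R 4.3.3) with group and library series as terms, and Benjamini-Hochberg adjustment covered 6278 genes, with a threshold of 0.05. Unless another tool is named, adjusted p-values in the text come from this fit. DESeq2 1.42.0, limma 3.58.1 and 22 fits without 1 library each served as alternatives. The fit was tested on simulated data. The members, the lists and the tests were chosen with earlier results of these data known. Values by library (the lowest, median and highest in groups of 6) are given for MSN2, MSN4, XBP1, the 10 genes named with the list, their paralogs and the 5 largest differences in PSD1 over V5-PSD1. From each other list, the 3 called genes with the largest change in PSD1 over empty vector are named, apart from 1 that is not reported here, and PEP4, TPK3, CDC25 and TOR1 were chosen after their values were seen. A fit with the runs of library numbers in series 5 in place of the library series was added after the data were seen. Promoters were read with Python 3.11.15, and coding identity was computed with Biopython 1.88 in place of the planned protein identity.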

Additional observations from a re-analysis of the deposited data

Results flagged for a closer look

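A library stood apart from the rest of its group in 12 of the 120 sets of values (30 genes in 4 groups), by Dixon's test at the 95% level, which chance flags in about 1 in 20 groups. PSD1 replicate 2 was the lowest of its group for GAD1 (291.66 CPM), GRE3 (387.89 CPM) and MSC1 (581.34 CPM), and PSD1 replicate 1 was the lowest for MSN2 (137.32 CPM). PSD1 pdr3 deletion replicate 2 was the lowest for PNC1 (538.39 CPM), RGI1 (138.88 CPM), TFS1 (181.46 CPM) and MSN4 (156.09 CPM), and PSD1 pdr3 deletion replicate 3 was the highest for RGI2 (75.738 CPM). V5-PSD1 replicate 2 was the highest for HOR7 (82.571 CPM) and V5-PSD1 replicate 3 the lowest for ALD4 (551.5 CPM). Empty vector replicate 3 was the lowest for MSN4 (152.7 CPM).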

How the results depend on the processing

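Of 150 results (30 genes in 5 comparisons), 101 kept their status as called or not called under all alternatives, and no call changed direction. Of the 4950 refitted values, 53 had the opposite sign to the main fit, all of them in results called in neither fit. Members called higher in PSD1 over empty vector numbered 26 in every fit that left out a library and 20 to 27 in the other alternatives, and in PSD1 pdr3 deletion over empty vector 23 to 26 and 19 to 28. Leaving out a library gave 0 to 1 members lower in PSD1 over empty vector, 0 to 1 lower in PSD1 pdr3 deletion over PSD1, 3 to 10 higher and 0 to 1 lower in V5-PSD1 over empty vector, and 22 to 24 higher in PSD1 over V5-PSD1. Members called lower in PSD1 over empty vector numbered 0 in series 5 alone and 0 in series 6 alone, beside 1 in all libraries. In PSD1 pdr3 deletion over PSD1, 1 member (YGP1) was lower with DESeq2 and 1 without the library series term. Members higher in V5-PSD1 over empty vector numbered 4 with only those groups in the fit, 1 in series 5 alone and 13 in series 6 alone, and in PSD1 over V5-PSD1 12 were higher in series 5 alone. With the runs of library numbers in place of the series, a choice made after seeing the data, 1 member (YGP1) was lower in PSD1 pdr3 deletion over PSD1, and 12 were higher and 1 lower (MSN2) in V5-PSD1 over empty vector. The fits of 1 series hold fewer libraries, and the cause of the other changes was not tested. Over all genes, series 5 alone called 1096 higher and 915 lower in PSD1 over empty vector (1863 and 1689 in all libraries), 348 and 265 in PSD1 over V5-PSD1 (1277 and 1264) and 502 and 250 in PSD1 pdr3 deletion over empty vector (1640 and 1344). Over all alternatives, 0 to 9 genes were higher and 4 to 35 lower in PSD1 pdr3 deletion over PSD1 (1 and 25), and 13 to 390 were higher and 1 to 98 lower in V5-PSD1 over empty vector (159 and 31).

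Replicate numbers are shared between groups, but same-numbered libraries did not deviate together throughout: the correlation of their deviations ran from -0.247 to 0.119 in PSD1 and empty vector and from -0.0853 to 0.573 in PSD1 pdr3 deletion and PSD1, where 4 of 6 libraries correlated best with their own number. In series 5 the replicate numbers follow the runs of library numbers within PSD1 pdr3 deletion and PSD1 and within V5-PSD1 and empty vector, but not across these. Libraries of the same run had correlations of 0.357 to 0.573 in PSD1 pdr3 deletion and PSD1, -0.0616 to 0.273 in PSD1 and empty vector, -0.0708 to 0.558 in V5-PSD1 and empty vector, and -0.314 to 0.243 in PSD1 and V5-PSD1. With a replicate block in place of the library series, members called higher numbered 26 in PSD1 over empty vector, 7 in V5-PSD1 over empty vector, 22 in PSD1 over V5-PSD1 and 24 in PSD1 pdr3 deletion over empty vector, and 0 were called in PSD1 pdr3 deletion over PSD1.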
